A study of Homo sapiens with 18 samples.

Results

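The genes described here are 10 endoplasmic reticulum (ER) chaperone and unfolded protein response genes, chosen by Ensembl ID from the 58676 IDs of a count table that covers 18 libraries. They are HSPA5 (ENSG00000044574), HYOU1 (ENSG00000149428), HSP90B1 (ENSG00000166598), DNAJB9 (ENSG00000128590), DNAJC3 (ENSG00000102580), SDF2L1 (ENSG00000128228), PDIA4 (ENSG00000155660), CRELD2 (ENSG00000184164), HERPUD1 (ENSG00000051108) and XBP1 (ENSG00000100219). The rule lists them by ID and uses no measured value, though the genes were chosen with earlier results of these data known. All 10 passed the filter on low counts, both among the 17678 IDs tested over the 18 libraries and among the 16616 tested over the 9 inputs.

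The libraries come from HEK 293T, a human embryonic kidney line that carries the SV40 large T antigen. SBP2 (SECIS-binding protein 2) binds the stem-loop that directs selenocysteine insertion during translation, and RNA immunoprecipitation (RIP) with anti-Flag magnetic beads was used to find RNAs recovered with it. All cells were transiently transfected: with the Flag vector alone (control), with Flag-SBP2, or with Flag-SBP2 followed 4 h later by 100 nM sodium selenite, a selenium source. Every lysate was collected 48 h after transfection, and 1 part in 5 was set aside as input before the beads were added. Each of the 3 treatments has 3 input and 3 RIP libraries, which the labels call biological replicates. Separate cultures are not specified beyond that, so the p-values measure the spread between these replicates. Sample titles, the treatment labels and the design text set Flag-SBP2 apart from Flag-SBP2 with selenite, but the treatment protocol speaks of selenite for the Flag-SBP2 group without that split. Values called "without selenite" rest on the former. SBP2 was overexpressed from a plasmid in a single cell line, and the growth text gives the line without the T that the other labels carry.

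The ER folds secreted and membrane proteins with lumenal chaperones of the Hsp70 and Hsp90 families, their co-chaperones and protein disulfide isomerases. When unfolded proteins accumulate, the sensors IRE1, PERK and ATF6 start the unfolded protein response. IRE1 splices the XBP1 mRNA, ATF6 is cut to release a transcription factor, and both factors act on ER stress response elements (ERSE and ERSE-II) in the promoters of chaperone genes. Several selenoproteins reside in the ER, which is one place where the SBP2 pathway and protein folding meet. None of the 10 genes encodes a selenoprotein.

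The promoters were searched for short DNA elements. Each ERSE and ERSE-II match is printed because these elements are the ones the family is known for. RefSeq promoter windows (GRCh38.p14, 250 bases before to 50 after each annotated start) matched 10 of 10 genes. Both strands were searched. ERSE (CCAAT, then 9 bases of any kind, then CCACG) was found in 4 of the 10 genes, against 0.0916% of the 27305 genes with a window. ERSE-II (ATTGG, then any 1 base, then CCACG) was found in 3 of the 10, against 0.0696% of genes. The sequences run 5′ to 3′ on the strand that reads the element, whose letters are in capitals.
HSPA5 ERSE: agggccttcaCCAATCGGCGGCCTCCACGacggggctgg
HSP90B1 ERSE, farther from the start: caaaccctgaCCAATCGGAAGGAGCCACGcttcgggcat
HSP90B1 ERSE, nearer the start: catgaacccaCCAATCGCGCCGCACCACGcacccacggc
XBP1 ERSE: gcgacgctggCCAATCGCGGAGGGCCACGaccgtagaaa
CRELD2 ERSE: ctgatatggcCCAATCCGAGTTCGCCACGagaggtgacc
HYOU1 ERSE-II, farther from the start: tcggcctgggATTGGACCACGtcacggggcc
HYOU1 ERSE-II, nearer the start: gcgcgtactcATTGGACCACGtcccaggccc
SDF2L1 ERSE-II: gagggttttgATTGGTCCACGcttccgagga
HERPUD1 ERSE-II: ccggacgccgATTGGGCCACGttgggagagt

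The HSPA5 stretch lies at chr9:125241381-125241419 on the minus strand, and the element within it begins 66 bases upstream of the start. Those of HSP90B1 lie at chr12:103930206-103930244 (plus) and chr12:103930311-103930349 (minus), that of XBP1 at chr22:28800593-28800631 (minus) and that of CRELD2 at chr22:49918544-49918582 (minus). The HYOU1 stretches lie at chr11:119057370-119057400 and chr11:119057264-119057294 (both plus), that of SDF2L1 at chr22:21642104-21642134 (minus) and that of HERPUD1 at chr16:56932015-56932045 (plus). DNAJB9, DNAJC3 and PDIA4 held neither pattern in these windows. The 5 letters CCACG, which end both patterns, were in 10 of 10 genes but also in 42.1% of all genes. The UPRE core (TGACGTGG) was in 1 of the 10 genes (HYOU1), against 0.927% of all genes. The CARE pattern (TGATG, then any 1 base, then AA) was in 1 of the 10 (HERPUD1), against 4.46% of all genes. A match is a string of letters, and binding at these promoters was not measured.

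Inputs held 15162472 to 22175748 counts in all and RIP libraries 20001542 to 29887524, and single libraries held 152 counts (DNAJB9) to 23513 counts (HSP90B1) for these genes. Values are given below as CPM, counts scaled to a library of 1000000 with TMM factors. They compare 1 gene across libraries and not genes with each other, since transcript lengths were not used. Higher or lower in RIP means relative to the other RNAs of that library, not the amount of RNA recovered. In these bulk samples, fewer cells with an RNA and less RNA per cell cannot be told apart. Control input replicate 3 stood apart for several of the genes, and its values are given with the inputs below. The table names genes by Ensembl ID alone, and the transfected gene was not matched to an ID here, so overexpression of SBP2 was not checked in the counts.

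**Figure D1:**
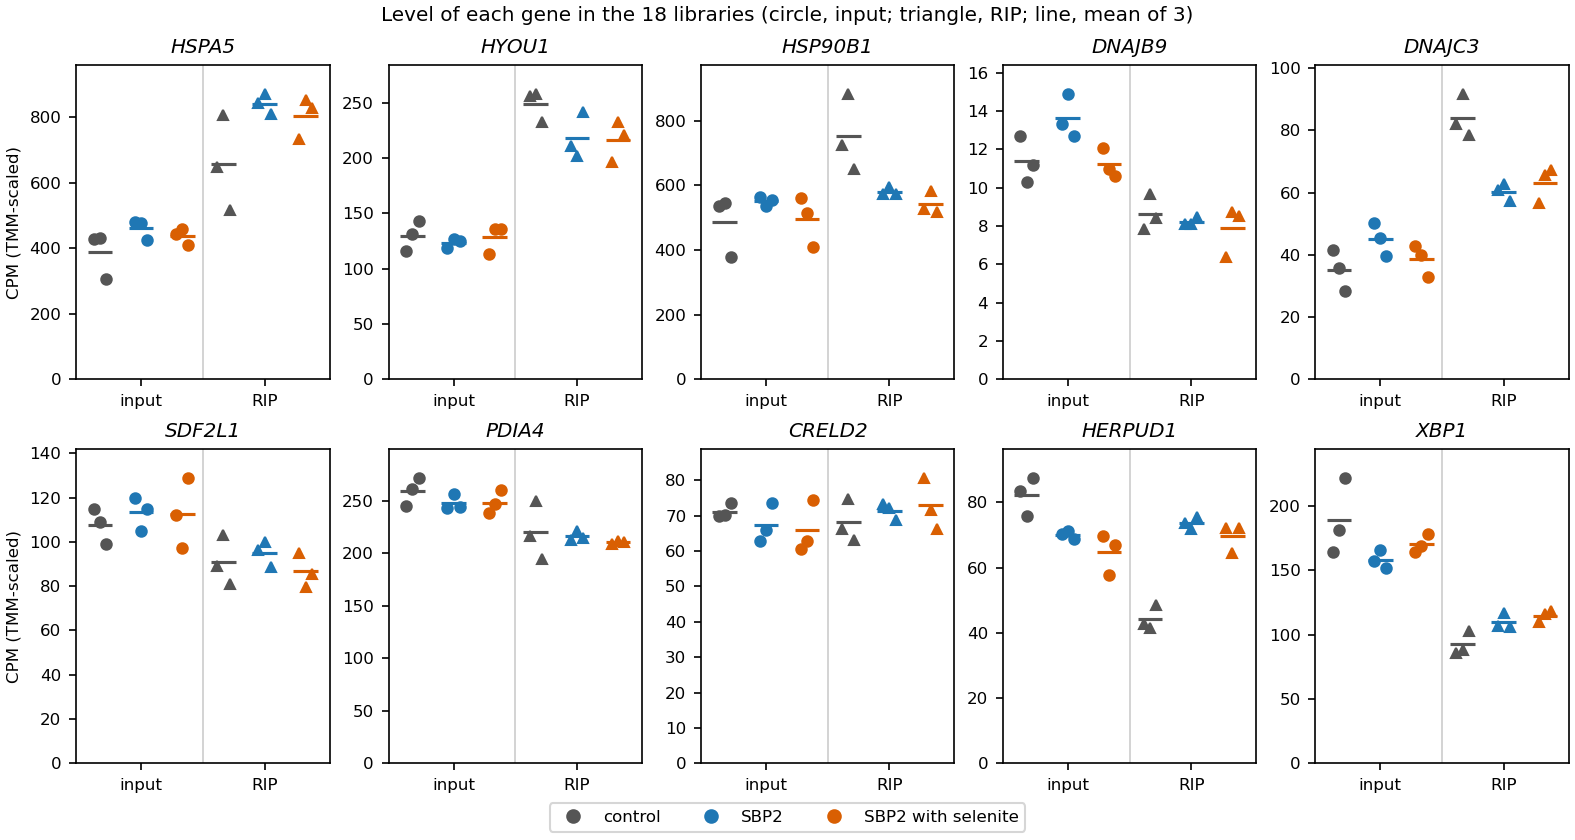
CPM of each gene (1 panel per gene, linear axis from 0) in the 18 libraries, with circles for inputs, triangles for RIP libraries and short lines for group means. Among the control libraries, HERPUD1 and XBP1 sit lower in the RIP set than in the inputs, and HSPA5, HYOU1, HSP90B1 and DNAJC3 sit higher.

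The first comparison, RIP against input in the Flag vector control, measures what the beads recovered without SBP2. The 10 genes did not behave alike. The mRNAs of the lumenal chaperones HSPA5 (BiP, the ER Hsp70), HYOU1 (an Hsp70-like exchange factor) and HSP90B1 (GRP94, the ER Hsp90) rose in the control RIP, as did that of DNAJC3 (p58IPK, an ER J-domain co-chaperone). Those of XBP1, the transcription factor, and HERPUD1, a membrane protein of ER-associated degradation, fell by the most. With edgeR's quasi-likelihood test, 4 genes were higher and 5 lower at a Benjamini-Hochberg adjusted p under 0.05. Of all IDs tested 71.3% were called (31.5% higher and 39.8% lower), so most IDs were called, whether members or not. For no treatment was it counted how many of all IDs had RIP values that did not overlap the inputs. Such gaps are therefore given below only as descriptions of single genes. With library size alone as the scaling the split turned to 6600 IDs higher and 5952 lower (5571 and 7039 with TMM), and the median of all IDs moved from -0.128 to 0.057. The members' median log2 difference was -0.15 with TMM.

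XBP1 (chr22:28794560-28800569, minus strand) measured 164, 181 and 222 CPM in the control inputs and 86.0, 88.3 and 103 CPM in the control RIP libraries. All 3 RIP values lay below all 3 inputs, a log2 difference of -1.03 (SE 0.0958, edgeR adjusted p = 5.90e-10). The gene counts do not separate the spliced from the unspliced XBP1 mRNA.

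HERPUD1 (chr16:56932142-56944864, plus strand) measured 83.6, 75.7 and 87.6 CPM in the control inputs and 42.7, 41.5 and 48.6 CPM in the control RIP. The groups did not overlap, with a log2 difference of -0.89 (SE 0.0890, edgeR adjusted p = 2.01e-09).

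DNAJC3 (chr13:95677139-95794988, plus strand) went the other way. It measured 41.6, 35.8 and 28.3 CPM in the control inputs and 82.0, 91.7 and 78.4 CPM in the control RIP, a 2.39-fold rise (log2 1.26, SE 0.123, edgeR adjusted p = 1.36e-09). Every RIP value was above every input.

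HYOU1 measured 116, 131 and 143 CPM in the control inputs and 256, 258 and 233 CPM in the RIP (log2 0.94, SE 0.0957, edgeR adjusted p = 3.21e-09). HSPA5 (chr9:125234853-125241343, minus strand) measured 430, 431 and 306 CPM against 650, 806 and 516 CPM (log2 0.76, SE 0.126, edgeR adjusted p = 8.03e-06). In both genes the RIP libraries were above all inputs, with a wider spread in HSPA5.

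HSP90B1 (chr12:103930410-103947926, plus strand) rose less, from 535, 547 and 378 CPM to 725, 883 and 651 CPM (log2 0.63), again with no overlap. These 6 calls held under all 14 alternatives. The remaining calls were small: DNAJB9 (ERdj4, a J-domain co-chaperone) at -0.40, and SDF2L1 (a J-protein cofactor) and PDIA4 (ERp72, a disulfide isomerase) at -0.24 each. The calls of DNAJB9, SDF2L1 and PDIA4 were lost with library size alone as the scaling, with DESeq2 size factors, in the DESeq2 test and with no filter on low counts. Leaving out 1 library also ended them: for DNAJB9 control input 1 (-0.31) or RIP 1 (-0.30), for SDF2L1 control input 1 (-0.19) or 2 (-0.23) or RIP 1 (-0.20) or 3 (-0.13), and for PDIA4 control input 3 (-0.19) or RIP 1 (-0.19) or 3 (-0.12). CRELD2, a disulfide-related ER protein, was at -0.07 (edgeR adjusted p = 0.547).

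In the Flag-SBP2 lysates, 3 genes were higher and 4 lower in RIP than in input, beside 62.0% of all IDs called (30.3% higher and 31.7% lower). HSPA5 (log2 0.87) and HYOU1 (0.82) rose. HYOU1 went from 119, 127 and 125 CPM to 211, 202 and 242 CPM, and DNAJC3 from 50.3, 45.5 and 39.5 CPM to 60.8, 62.9 and 57.3 CPM (log2 0.42, edgeR adjusted p = 0.00389). Both had every RIP value above every input. XBP1 fell by 0.53 (edgeR adjusted p = 3.57e-05), from 157, 166 and 152 CPM to 107, 117 and 106 CPM. DNAJB9 fell by 0.73 (edgeR adjusted p = 2.93e-05), from 13.3, 14.9 and 12.7 CPM to 8.11, 8.11 and 8.47 CPM, with no overlap. The calls of SDF2L1 (-0.26) and PDIA4 (-0.20) were lost under the same 4 settings. PDIA4 lost its call without any 1 of the 6 libraries (-0.17 to -0.21), and SDF2L1 without SBP2 input 1 (-0.21) or 3 (-0.25) or RIP 1 (-0.27) or 3 (-0.19). HERPUD1 (0.07), HSP90B1 (0.07) and CRELD2 (0.08) were not called.

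With selenite as well, 3 genes were higher and 4 lower, beside 62.2% of all IDs (30.7% higher and 31.6% lower). HSPA5 rose by 0.88, HYOU1 by 0.75 and DNAJC3 by 0.71, and XBP1 fell by 0.57, DNAJB9 by 0.51, SDF2L1 by 0.38 and PDIA4 by 0.24. HERPUD1 (0.10), HSP90B1 (0.13) and CRELD2 (0.15) were not called. The PDIA4 call was lost with library size alone, with no filter and without selenite input replicate 3 (-0.20). Without that input CRELD2 was called higher, at 0.25. HSPA5 measured 444, 459 and 411 CPM in these inputs and 734, 852 and 829 CPM in the RIP libraries. XBP1 measured 164, 169 and 178 CPM against 110, 116 and 118 CPM. In both genes the 2 kinds of library were apart.

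Over the 18 libraries CRELD2 ran from 60.5 to 80.7 CPM. PDIA4 ran from 238 to 272 CPM over the inputs and from 195 to 250 CPM over the RIP libraries, and SDF2L1 from 97.1 to 129 CPM and from 79.7 to 103 CPM.

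**Figure D2:**
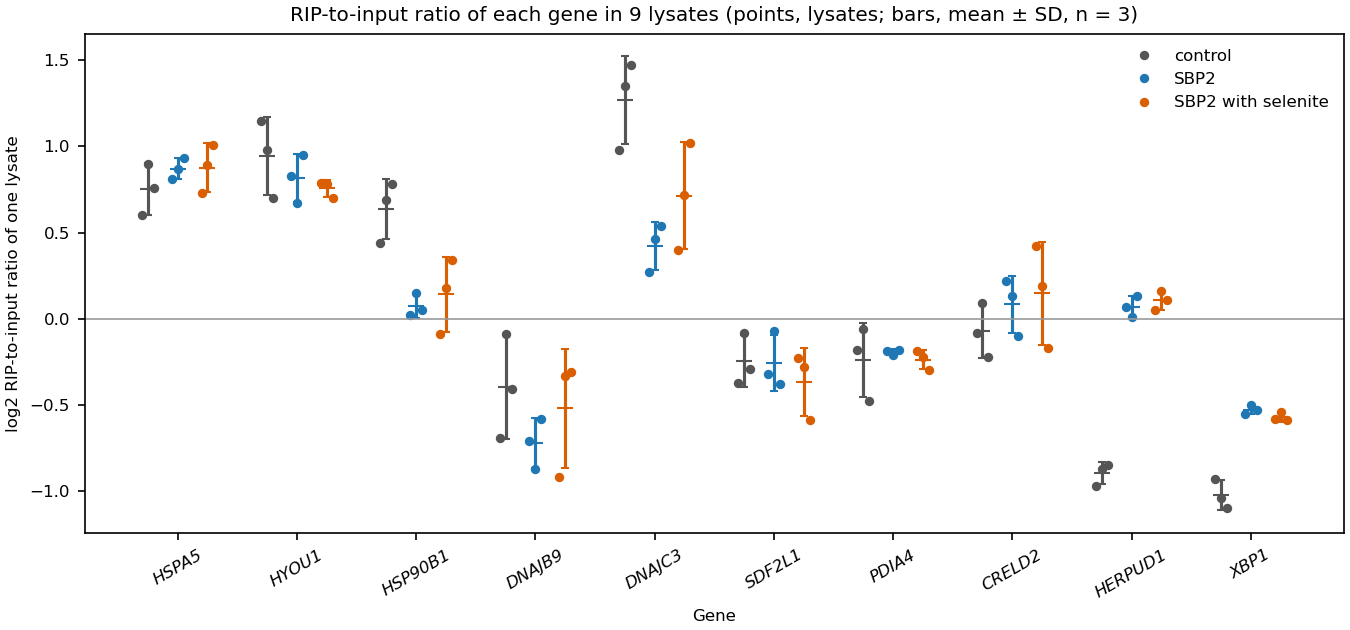
Log2 ratio of RIP to input within each lysate (y axis) for each gene (x axis), 1 point per lysate, 3 lysates per treatment, and bars for the mean ± SD. The HERPUD1 and XBP1 ratios of the control lysates lie below those of all SBP2 lysates, and the HSP90B1 ratios lie above them.

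The comparison that bears on SBP2 sets the RIP-to-input ratio of SBP2 lysates against that of control lysates, called enrichment over control here. HERPUD1 and XBP1 were enriched with SBP2, DNAJC3 and HSP90B1 were depleted relative to control, and the other 6 genes were not called. That is 2 higher and 2 lower of 10, where 39.9% of all IDs were called (21.7% higher and 18.1% lower), so the share of genes called is near the background. The genes' median was 0.01 and that of all IDs 0.02. With library size alone, 3007 IDs were higher and 4368 lower (3844 and 3201 with TMM), and the median of all IDs moved from 0.022 to -0.126.

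HERPUD1 had the largest shift of the set. Its log2 RIP-to-input ratios were -0.97, -0.87 and -0.85 in the control lysates and 0.07, 0.01 and 0.13 in the SBP2 lysates. Depleted on the beads without SBP2, it was near its input level with SBP2. The enrichment was 0.97 (SE 0.125, 1.95-fold, 95% interval 0.71 to 1.22, edgeR adjusted p = 8.60e-07), above that of 87.7% of all IDs.

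The HERPUD1 RIP libraries alone showed the same direction: 73.8, 71.8 and 75.5 CPM with SBP2 were all above the control values. RIP set against RIP, without the inputs, gave 0.74 (edgeR adjusted p = 1.16e-07). In the inputs HERPUD1 was 70.2, 71.3 and 68.8 CPM with SBP2, below all 3 control inputs. Of all IDs, 56.2% were called in this RIP against RIP comparison.

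XBP1 moved in the same direction by less. Its log2 ratios were -0.93, -1.04 and -1.10 in control lysates and -0.55, -0.50 and -0.53 in SBP2 lysates, which did not overlap. The enrichment was 0.50 (SE 0.134, 1.42-fold, interval 0.23 to 0.78, edgeR adjusted p = 0.00392). It was still lower on the beads than in its input, and RIP against RIP gave 0.25 (edgeR adjusted p = 0.0277). In the inputs XBP1 differed from control by -0.25 with SBP2, which was not called, and by -0.10 without control input replicate 3.

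DNAJC3 was recovered less with SBP2 than with the vector. Its log2 ratios were 0.98, 1.35 and 1.47 in control lysates and 0.27, 0.46 and 0.54 in SBP2 lysates. The groups were apart, by -0.84 (SE 0.172, interval -1.19 to -0.48, edgeR adjusted p = 0.000336), and only 8.36% of IDs lay lower. RIP against RIP gave -0.48 (edgeR adjusted p = 0.00127). In the inputs DNAJC3 differed from control by 0.36 with SBP2, which was not called.

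HSP90B1 had log2 ratios of 0.44, 0.69 and 0.78 in control lysates and 0.02, 0.15 and 0.05 in SBP2 lysates. The difference was -0.56 (SE 0.173, interval -0.91 to -0.20, edgeR adjusted p = 0.0120). The SBP2 RIP libraries held 573, 594 and 574 CPM, all below the lowest control RIP library. HSP90B1 has pseudogenes elsewhere in the genome (HSP90B2P and HSP90B3P), and how the counting treated reads that fit several places is not given in the sources used here. These 4 calls held under all 21 alternatives.

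The other 6 members did not pass the threshold. HSPA5 was at 0.11 (interval -0.26 to 0.47, edgeR adjusted p = 0.670), HYOU1 at -0.11 (interval -0.39 to 0.16) and DNAJB9 at -0.33 (interval -0.71 to 0.05). SDF2L1 was at -0.02, PDIA4 at 0.04 and CRELD2 at 0.15. For HSPA5 the call differed with and without the inputs. It measured 845, 872 and 809 CPM in the SBP2 RIP libraries and 650, 806 and 516 CPM in the control RIP libraries. The SBP2 values were all above the control values, but the gap from 806 to 809 CPM was narrow. RIP against RIP gave 0.36 for HSPA5 (edgeR adjusted p = 0.0174). The SBP2 inputs measured 481, 479 and 425 CPM. The direction of its enrichment turned to -0.04 with library size alone, to -0.03 with no filter on low counts and to -0.07 without control RIP replicate 3.

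With selenite, set against the same control libraries, the 4 genes called were HERPUD1 and XBP1 (higher) and DNAJC3 and HSP90B1 (lower), beside 33.7% of all IDs called (19.3% higher and 14.4% lower). The split over all IDs was 3416 higher and 2540 lower with TMM, 2784 and 3397 with DESeq2 size factors and 2670 and 3582 with library size alone, where the median moved from 0.026 to -0.104. Since the control lysates are shared, this is not independent of the comparison above. HERPUD1 had log2 ratios of 0.05, 0.16 and 0.11 and an enrichment of 1.00 (SE 0.125, interval 0.74 to 1.26, edgeR adjusted p = 7.29e-07). XBP1 had ratios of -0.58, -0.54 and -0.59 and an enrichment of 0.46 (SE 0.134, edgeR adjusted p = 0.00964). Both lay above all control lysates.

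DNAJC3 with selenite had ratios of 0.40, 0.72 and 1.02, and the highest of these overlapped the control lysates. Its difference was -0.55 (SE 0.172, edgeR adjusted p = 0.0153). HSP90B1 had ratios of -0.09, 0.18 and 0.34, below all controls, and a difference of -0.50 (SE 0.173, edgeR adjusted p = 0.0280). The HSP90B1 call was lost when any of 6 single libraries was left out, namely selenite input 1 (-0.40) or 2 (-0.47), selenite RIP 1 or 3 (-0.48 each), control input 3 (-0.34) or control RIP 2 (-0.38), with edgeR adjusted p from 0.0568 to 0.0980. The other 6 members were not called: HSPA5 was at 0.12, HYOU1 at -0.18, DNAJB9 at -0.11, SDF2L1 at -0.13, PDIA4 at 0.00 and CRELD2 at 0.21. The XBP1 call was lost with library size alone (0.33) and with no filter on low counts (0.30). RIP against RIP gave 0.65 for HERPUD1, 0.31 for XBP1, -0.41 for DNAJC3 and -0.47 for HSP90B1, all with an edgeR adjusted p under 0.05, beside 51.0% of all IDs called.

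The lysate ratios did not overlap control in 4 of 10 genes without selenite, where 51.2% of all IDs did not, and in 3 of 10 with selenite, where 43.3% did not.

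**Figure D3:**
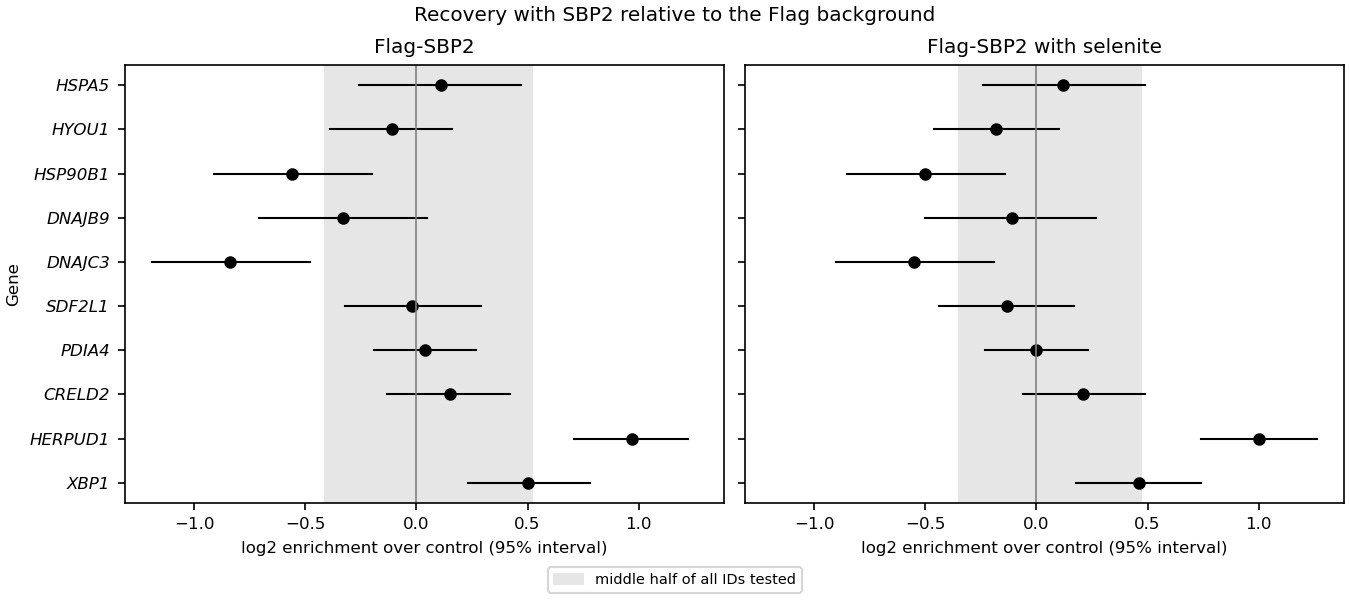
Log2 enrichment over control (x axis) of each gene, with Flag-SBP2 on the left and with Flag-SBP2 and selenite on the right. Points are edgeR estimates, bars their 95% intervals, and the grey band the middle 50% of all IDs tested. HERPUD1 lies right of the band in both panels, and HSP90B1 and DNAJC3 lie left of it.

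Selenite itself was tested as the difference between the RIP-to-input ratios of SBP2 lysates with and without it. No member was called, and 0 of 17678 IDs were called by edgeR (0% of IDs), with 800 IDs and 0 members at an unadjusted p under 0.05. DESeq2 and limma voom also called 0 members. Differences ran from -0.12 (SDF2L1) to 0.29 (DNAJC3, SE 0.171, interval -0.07 to 0.64). HERPUD1 differed by 0.03 (interval -0.23 to 0.29) and XBP1 by -0.05 (interval -0.32 to 0.23). DNAJB9 differed by 0.22, HYOU1 by -0.07, HSP90B1 and CRELD2 by 0.06, PDIA4 by -0.04 and HSPA5 by 0.01. The 95% intervals of the 10 genes reached from -0.42 to 0.64. With 3 lysates a group, any difference inside a gene's own interval remains compatible with these data.

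Input against input asks whether SBP2 or selenite changed the level of these mRNAs in the lysate. With SBP2, edgeR called 0 of the 10 genes, beside 0.879% of all IDs, while 4 members and 2500 IDs were at an unadjusted p under 0.05. DNAJC3 measured 50.3, 45.5 and 39.5 CPM, a difference from control of 0.36 (SE 0.145, adjusted p = 0.255). HSPA5 was at 0.25 (adjusted p = 0.332), XBP1 at -0.25 (adjusted p = 0.292) and HERPUD1 at -0.23 (adjusted p = 0.302). HSP90B1 was at 0.19, SDF2L1 at 0.08, PDIA4 at -0.06, and HYOU1 and CRELD2 at -0.07. When edgeR's fit held the replicate number as a block, 4 members passed, beside 16.5% of all IDs: DNAJC3 (0.37, adjusted p = 0.00180) and HSPA5 (0.27, adjusted p = 0.00934) higher, and XBP1 (-0.24, adjusted p = 0.0288) and HERPUD1 (-0.22, adjusted p = 0.0353) lower. Same-numbered inputs of these groups had deviations that correlated at 0.0894 to 0.281, with 1 of 3 pairs under 0.1. DNAJB9 (0.27, higher) and HERPUD1 (lower) were the members whose 3 values did not overlap the control inputs, and 20.7% of all IDs did not. For DNAJB9 the gap was narrow, since its lowest SBP2 input and its highest control input both rounded to 12.7 CPM.

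Control input replicate 3 bears on these values. It lay below its group's mean log2 CPM by 0.33 for HSPA5, 0.34 for HSP90B1 and 0.30 for DNAJC3, and above it by 0.24 for XBP1. Without it the SBP2 input differences were 0.13 for HSPA5, 0.24 for DNAJC3, -0.10 for XBP1 and -0.16 for HERPUD1. Leaving out control input replicate 1 instead gave larger differences for HSPA5 (0.34), DNAJC3 (0.50) and XBP1 (-0.34), with HERPUD1 at -0.21. Selenite input replicate 3 was also below its group's mean, by 0.26 for HSP90B1 and 0.21 for DNAJC3.

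**Figure D4:**
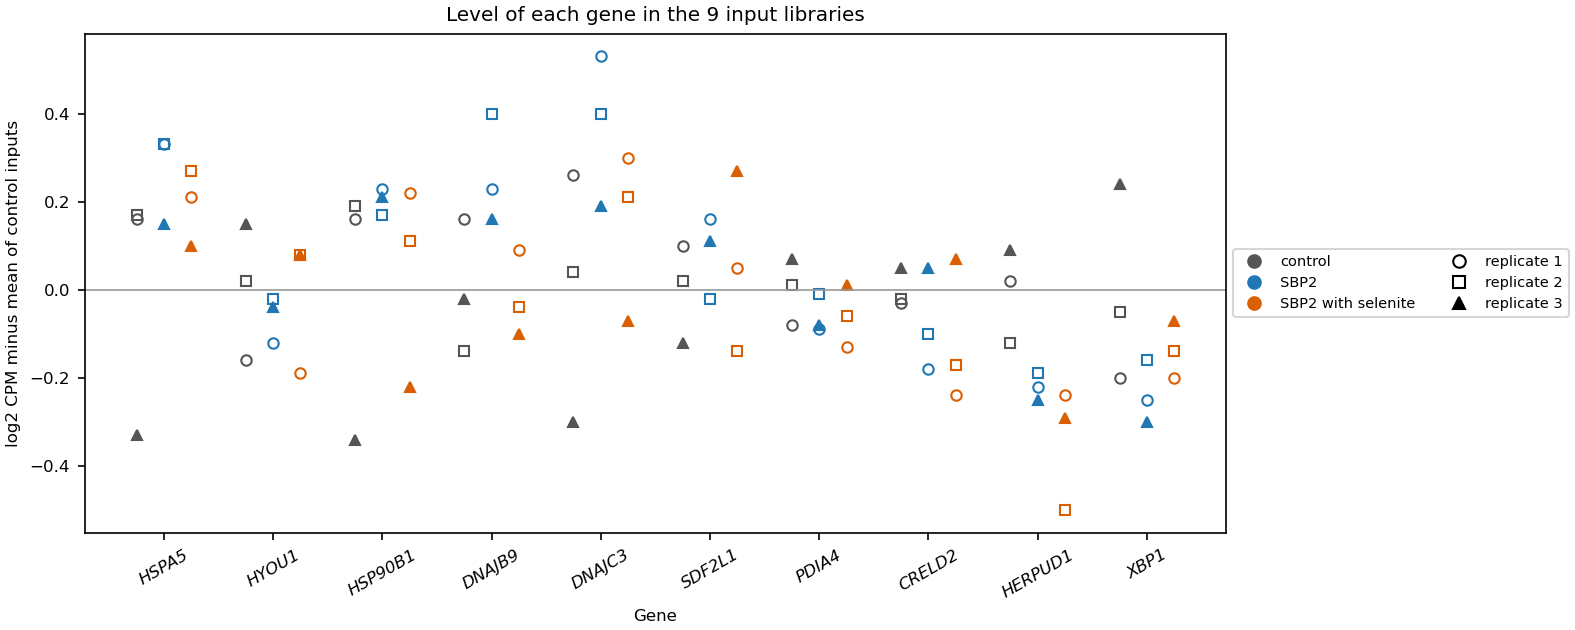
Log2 CPM of each gene in the 9 inputs minus the mean of the control inputs (y axis), with colours for treatments and marker shapes for replicate numbers. Control replicate 3 lies lowest for HSPA5, HSP90B1 and DNAJC3, and the 6 SBP2 inputs lie below all control inputs for HERPUD1.

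With SBP2 and selenite, HERPUD1 measured 69.8, 57.6 and 66.9 CPM in the inputs, all below the control inputs. Its difference was -0.34 (SE 0.0985, interval -0.55 to -0.13) and edgeR's adjusted p was 0.165, so it was not called. No member was called, beside 0.554% of all IDs, and 1 member and 1870 IDs were at an unadjusted p under 0.05. The other 9 ran from -0.15 (XBP1) and -0.11 (CRELD2) through PDIA4 (-0.06), HYOU1 and DNAJB9 (-0.01 each), HSP90B1 (0.03), SDF2L1 (0.07) and DNAJC3 (0.14) to HSPA5 (0.18). Replicate numbers pair these inputs, and with the number as a block HERPUD1 was called (-0.34, SE 0.0720, edgeR adjusted p = 0.00385), where 6.80% of all IDs were. It was the single member whose values did not overlap, beside 14.8% of IDs. Without control input replicate 3 the unblocked difference was -0.27.

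Between the SBP2 inputs with and without selenite, edgeR called 0 members, beside 0.00602% of IDs, with 1 member and 251 IDs at an unadjusted p under 0.05. That member was DNAJB9, at 12.1, 11.0 and 10.6 CPM with selenite. All 3 values lay below those without it, beside 6.19% of IDs that did not overlap, by a log2 difference of -0.28 (edgeR adjusted p = 1.00). The others were DNAJC3 (-0.22), HSP90B1 (-0.16), HERPUD1 (-0.12), HSPA5 (-0.08), CRELD2 (-0.04), SDF2L1 (-0.02), PDIA4 (0.00), HYOU1 (0.06) and XBP1 (0.10). The intervals of the 10 genes reached from -0.56 to 0.33 in this unblocked fit. Replicate numbers pair these inputs too. With the number as a block edgeR again called 0 members, beside 0.223% of IDs. In that fit 3 members and 1679 IDs were at an unadjusted p under 0.05. These members were DNAJB9 (-0.28), DNAJC3 (-0.23) and HSP90B1 (-0.17).

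Over the 18 libraries, the likeness of a gene's profile to that of HSPA5 was measured as the root-mean-square difference of centred log2 CPM, among 13204 IDs (median 0.546). HYOU1 (0.281, rank 764) and DNAJC3 (0.287, rank 849) were the nearest members, then HSP90B1 (0.385, rank 2687) and CRELD2 (0.454, rank 4381). PDIA4, SDF2L1, HERPUD1 and DNAJB9 lay farther than the median ID, and XBP1 was the most distant member (0.817, rank 10258). The nearest IDs were ENSG00000215251 (0.127) and ENSG00000137807 (0.128), for which no symbol was paired here. This is a description over libraries that share lysates in pairs and differ in depth.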

How the data were processed

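RNA from inputs and anti-Flag RIP samples was sequenced. The deposited count table holds whole-number counts per Ensembl gene ID. Per the submitters' processing notes, Trim Galore 0.6.6, STAR 2.7.6a, featureCounts 2.0.1 and GRCh38/hg38 were used; the sources used here give no strand or multi-mapping settings. All counts were mapped to labelled samples. Counts were tested in R 4.3.3 with edgeR 4.0.16 (glmQLFit, glmQLFTest, TMM, filterByExpr with a minimum count of 10 and a minimum total of 15), with 1 fit over 18 libraries for RIP comparisons and 1 over 9 inputs for input comparisons. Benjamini-Hochberg adjustment ran over all IDs tested, 2-sided, at 0.05. Lysate ratios used a prior count of 2. Scripts were tested on simulated data.

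The members and lists were chosen with earlier results of these data known. All 10 members are named in every comparison, with full statistics for up to 5 called ones. Likeness to HSPA5 was measured for IDs whose log2 CPM averaged at least 1.

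Input and RIP of 1 number share a lysate, per the labels' protocols, and the block changed no member call in the 6 RIP comparisons. Same-numbered input and RIP deviations correlated at 0.018 to 0.195 (control), 0.0325 to 0.108 (SBP2) and 0.00116 to 0.162 (selenite). Each treatment had a pair under 0.1, so the counts showed this pairing only weakly and the lysate ratios rest on the labels. Across inputs, same-numbered deviations correlated at 0.172 to 0.410 (selenite with control), 0.149 to 0.259 (selenite with SBP2) and 0.0894 to 0.281 (SBP2 with control), so the numbers were taken as pairs in the first and second. The third had a pair under 0.1, and its values are given with and without the block. No 2 replicates of a group looked like 1 library deposited again (chi-square over its degrees of freedom was 5.07 to 29.3 in the 18 pairs). Alternatives were DESeq2 1.42.0, limma voom 3.58.1, other scalings and filters, the block, other sample sets and leaving out each library.

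Gene positions and promoters are RefSeq's. The rest of the pathway, cell markers and protein sequences were not analysed here, since 0 IDs of the table could be paired with symbols beyond the members. HYOU1 overlaps HYOU1-AS1, HSP90B1 overlaps MIR3652, and HSPA5 and XBP1 have pseudogenes, so reads may be shared there.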

Additional observations from a re-analysis of the deposited data

Results flagged for a closer look

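The difference between RIP and input differed between SBP2 and control lysates for 4 of the 10 genes, by edgeR's interaction test. Of all IDs, 39.9% were called without selenite and 33.7% with it, so the share of genes called is near the background. HERPUD1 (0.97 without selenite, 1.00 with it) and XBP1 (0.50 and 0.46) were higher with SBP2. DNAJC3 (-0.84 and -0.55) and HSP90B1 (-0.56 and -0.50) were lower. With selenite, the HSP90B1 call was lost when any of several single libraries was left out. The XBP1 call with selenite was lost with library size alone and with no low-count filter. Both series of values use the same 3 control lysates.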

How the results depend on the processing

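With the replicate number as a block, 4 members were called in SBP2 input against control (HSPA5, DNAJC3, HERPUD1 and XBP1), beside 16.5% of all IDs. In selenite input against control the blocked fit called 1 member (HERPUD1), beside 6.80% of all IDs. The block changed no other member call. A fit over 18 libraries also called 1 member, HERPUD1, in selenite input against control (adjusted p = 0.0405), beside 144 IDs higher and 215 lower of 17678. The direction of HSPA5's enrichment with SBP2 turned with library size alone (-0.04), with no low-count filter (-0.03) and without control RIP replicate 3 (-0.07), and it ranged from -0.07 to 0.27 as single libraries were left out. Leaving out each library in turn, without a block, members called ranged from 6 to 9 in control RIP and from 5 to 6 in SBP2 RIP. They were 7 in selenite RIP, 4 in SBP2 enrichment and from 3 to 4 in selenite enrichment. The count was 0 in the selenite effect and in the 3 input comparisons, again without the pairing of inputs. In the main fits, 71.3% of all IDs were called in control RIP, 62.0% in SBP2 RIP and 62.2% in selenite RIP. In the enrichments 39.9% were called with SBP2 and 33.7% with selenite as well. With library size alone, DNAJB9 passed as lower in SBP2 enrichment (-0.48).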
